A study of Mus musculus with 4 samples.

Results

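Tandem CTCF sites, meaning sites bound in both splenic B cells and splenic plasmablasts that lie within 2 kb of another such site, numbered 1932 of 24186 shared autosomal sites (7.99%, exact 95% binomial interval 7.65 to 8.34%). A shared site was a B cell peak that overlapped a plasmablast peak by at least 1 bp, and its position was the midpoint of the B cell peak. The members were thus chosen by the listed positions of peaks in both cell types, and their number and the upper limit of their spacing follow from that choice. No score was used to choose them, but a peak must reach the authors' calling limits to be listed, so the scores of members are described here without a test. All 1932 sites enter the values below, since no filter on low scores was applied.

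CTCF is a DNA-binding protein with an array of zinc fingers that stops the cohesin complex as it extrudes chromatin loops, and it marks many borders between chromosome domains. Its motif has a direction, and sites facing each other are known as the usual anchors of a loop. Several CTCF sites close together are a known feature of many domain borders, where each site can hold cohesin in part of the cells. In B lineage cells, CTCF is known for organising the immunoglobulin loci and other genes of the immune response. "Tandem" is used here only for closeness, because the direction of the motifs was not determined.

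The binding was measured by chromatin immunoprecipitation and sequencing in C57BL/6 mice aged 6 weeks. The B cells were the CD43- fraction of spleens enriched on magnetic beads, a negative selection that can retain other CD43- spleen cells. The plasmablasts, activated B lineage cells that secrete antibody, were CD138+ cells sorted from spleens 3 days after 50 µg of lipopolysaccharide (LPS), an agent that B cells of the other group did not receive. There was 1 CTCF library and 1 input library per cell type, and the labels do not say whether animals were pooled. Peak lists hold no expression values, so the cell types could not be checked against marker genes. The peak lists of the 2 CTCF libraries held 36381 B cell and 31086 plasmablast peaks, with scores that are the authors' own and have no stated unit. Depth is unknown, and the cell types were also sequenced on different instruments, so cell type, LPS and instrument cannot be told apart. There is no replicate, so no p-value between cell types is given. The intervals throughout cover only the number of sites or pairs counted. Those over sites take each site as independent. Tandem sites are members together with a neighbour, so their intervals tend to be too narrow.

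Most tandem sites came as isolated pairs. They formed 951 runs, of which 922 held 2 sites, 28 held 3 and 1 held 4, and these gave 981 pairs of neighbouring sites. Each B cell peak overlapped no more than 1 plasmablast peak. Tandem sites were found on all 19 autosomes. Their share of a chromosome's shared sites was lowest on chromosome 18, with 36 of 664 sites (5.42%, interval 3.83 to 7.43%), and highest on chromosome 2, with 181 of 1943 (9.32%, 8.06 to 10.7%). The share also went with local density: among shared sites with 32 or more others within 500 kb, 11.4% were tandem (553 of 4872 sites), and among those with 10 or fewer, 4.10% were (208 of 5076 sites). The density count includes the tandem partner itself.

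Because shared peaks have to overlap, the midpoints of both lists lay at most 240 bp apart at tandem sites, and a like spacing in both lists follows largely from the choice of members. The median distance between midpoints was 1308 bp in B cells (order-statistic interval 1275 to 1351 bp) and 1311 bp in plasmablasts (1284 to 1345 bp). The quartiles were 988 and 1621 bp in B cells and 987 and 1626 bp in plasmablasts. For the single pair, the spacing in both lists differed by a median of 24 bp, and 81.7% of pairs (801 of 981) matched within 50 bp. Plasmablasts had the wider spacing in 466 pairs, the narrower in 493 and the same in 22. The largest differences were 234 bp wider and 246 bp narrower in plasmablasts. By the plasmablast midpoints 9 of the pairs lay more than 2000 bp apart, the widest at 2097 bp.

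No preferred distance stood out below 2 kb. In steps of 250 bp by B cell midpoints, the number of pairs was 57 from 500 to 750 bp, 198 to 1000 bp, 183 to 1250 bp, 207 to 1500 bp, 175 to 1750 bp and 161 to 2000 bp. The next step, just outside the limit, held 170 pairs, so the 2 kb limit falls at no break in the spacing. At the short end the lists themselves set a floor. Each B cell peak spans 305 bp and nearly each plasmablast peak 179 bp, and the closest autosomal neighbours in the whole lists had midpoints 549 and 372 bp apart. The plasmablast list held 113 pairs within 500 bp, of which 106 had 1 shared peak and 7 had none, because B cell peaks that close were not listed. No shared sites nearer to each other than 549 bp could therefore appear among the members.

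**Figure D1:**
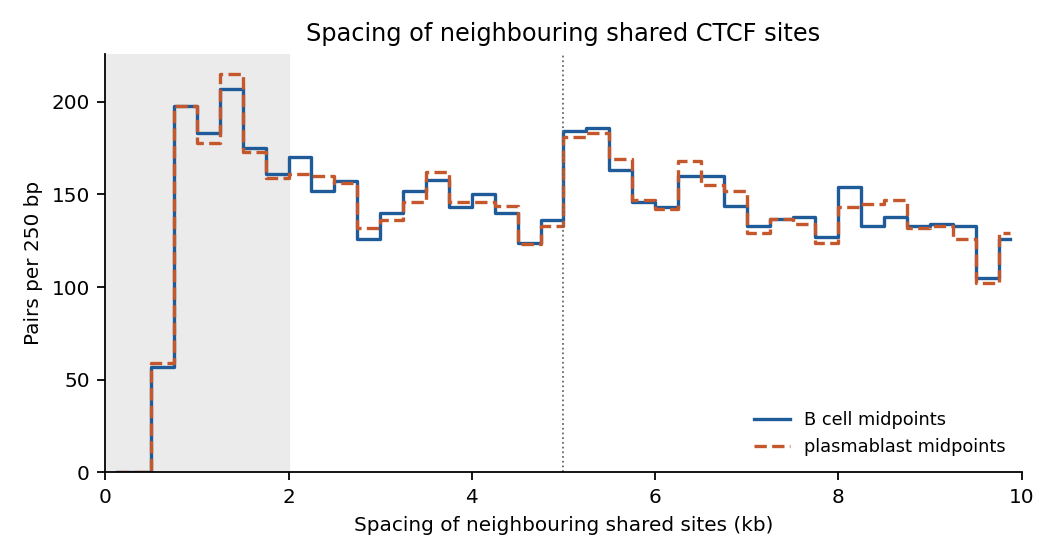
Number of pairs of neighbouring shared autosomal sites per 250 bp of spacing (y axis) against their spacing in kb (x axis), by B cell midpoints (solid blue) and plasmablast midpoints (dashed orange). The grey area is the tandem range up to 2 kb, and the dotted line marks 5 kb, where the B cell count goes from 136 to 184 pairs per step.

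The closest pairs and those on either side of the limit are given as examples. The closest pair of all lay on chromosome 8, with B cell peaks at 93641496 to 93641800 and 93642057 to 93642361, 561 bp apart in B cells and 606 bp in plasmablasts. Its left site scored 37.0 in B cells and 7.7 in plasmablasts, and its right site scored 122.3 and 12.8, so the right partner was the stronger in both. The next pairs were on chromosome 15 from 27512276 to 27513187 (607 and 657 bp) and on chromosome 3 from 95665204 to 95666121 (613 and 601 bp). In both of these the stronger partner was not the same in B cells and plasmablasts. At the other end, the pairs just inside the limit were 2000 bp apart on chromosomes 7 and 19 and 1998 bp apart on chromosome 6. Just outside lay pairs at 2002 bp on chromosome 10 and at 2003 bp in 2 places on chromosome 5. The scores on either side of the limit overlapped, from 63.0 to 229.7 in B cells inside it and from 29.6 to 239.9 outside.

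Tandem sites were stronger than the other shared sites in both cell types. The median score in B cells was 135.2 for tandem sites (lowest 12.0, highest 420.5) and 103.7 for the 22254 others. In the plasmablast list it was 29.3 (lowest 2.1, highest 143.7) against 23.0. As a position within the whole list of the same library, the median tandem site lay at the 73.2nd percentile in B cells (71.9 to 74.5) and the other shared sites at the 65.1st (64.6 to 65.4). In plasmablasts these were the 65.0th (62.7 to 66.9) and the 55.8th (55.0 to 56.4). Weak sites were fewer among the tandem ones: 1.71% lay below the 20th percentile of B cell peaks, against 6.48% of the others, and 9.63% against 15.6% in plasmablasts. Neighbouring shared sites 2000 to 5000 bp apart ranked nearly as high, at medians of the 72.7th percentile in B cells and the 63.4th in plasmablasts. From 5000 to 10000 bp the medians were the 69.6th and the 60.3rd. The high rank was thus not particular to sites within 2000 bp of each other. Strength, local density and the limits of the peak calling were not varied independently, and their part in this was not tested.

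Within a pair the scores were more balanced in the B cell list than in the plasmablast list. Balance is given as the weaker score in percent of the stronger one in the same list. Its median was 64.0% in B cells (61.9 to 65.9%, quartiles 46.6 and 82.3%) and 55.6% in plasmablasts (53.0 to 59.2%, quartiles 36.4 and 77.5%). Scores less than 1.5-fold apart were found in 45.6% of the pairs in B cells (447 of 981) and in 37.4% in plasmablasts (367). The pair was more balanced in B cells in 616 cases and in plasmablasts in 365. The least balanced pair had a weaker partner at 19.0% of the stronger in B cells, and in plasmablasts at 7.71%. Scores at least 2-fold apart were found in 30.9% of the pairs in B cells (303 of 981) and in 43.1% in plasmablasts (423). Over all 24167 pairs of neighbouring shared sites, whatever their spacing, these were 48.8% and 53.1%, so unbalanced pairs were less frequent among the tandem ones in both lists. The comparison of balance between cell types takes each list's scores as proportional to binding, which the sources do not state.

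The levels of both partners were read from their percentiles within each list. In B cells the stronger partner lay at a median of the 83.0th percentile of the list and the weaker at the 64.4th, and in plasmablasts at the 78.7th and 49.9th. Among the 981 pairs, 444 had both partners above the list median in both cell types (45.3%, against 26.9% of all neighbouring shared sites), and 44 had both below it in both (4.49% against 6.92%). In 20 pairs both partners were above the 90th percentile of both lists (2.04% against 0.786%). Pairs with 1 partner above and 1 at or below the list median numbered 184 in B cells (18.8% against 38.1%) and 338 in plasmablasts (34.5% against 47.2%). The pairs were also divided into tertiles by mean rank over both partners and both lists. Median balance was 74.0% in B cells and 69.3% in plasmablasts in the strongest tertile, against 54.7% and 48.8% in the weakest. The same scores enter the rank and the balance, and a high mean rank leaves less room for large folds. These values are thus a description only.

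The balance was not particular to pairs within 2 kb, and it broke off at a spacing of 5 kb. In B cells the median balance of neighbouring shared sites was 61.8% from 2 to 3 kb, 63.9% from 3 to 4 kb and 60.1% from 4 to 5 kb, then 53.2% from 5 to 6 kb and 50.8% from 6 to 7 kb. In plasmablasts it was 54.0% from 4 to 5 kb and 48.2% from 5 to 6 kb. The largest fold between neighbours in B cells was 5.26 for tandem pairs, 6.44 from 4 to 5 kb and 15.3 from 5 to 6 kb. Neighbours at least 3-fold apart were 8.05% of the tandem pairs in B cells, 11.1% from 2 to 5 kb and 28.2% from 5 to 10 kb.

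The likeness of neighbours' scores had the same break. Across tandem pairs the scores of the left and right partner had a Spearman correlation of 0.48 in B cells and 0.33 in plasmablasts (981 pairs, which share the library and the local chromatin). For neighbours 2 to 5 kb apart it was 0.45 and 0.26 (1748 pairs), and for those 5 to 10 kb apart 0.10 and 0.02 (2877 pairs). The break was in each list by itself, shared or not: among all autosomal B cell peaks the correlation was 0.62 for neighbours 4 to 5 kb apart (994 pairs) and 0.13 at 5 to 6 kb (1347 pairs), and among plasmablast peaks it was 0.20 (819 pairs) and 0.00 (844 pairs). HOMER, which the submitters' processing notes name, can drop a peak that does not stand out from the signal around it, a step that would remove weak peaks next to strong ones. Whether it was used is not given in the sources used here, and its part in the balance of tandem pairs was not tested.

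**Figure D2:**
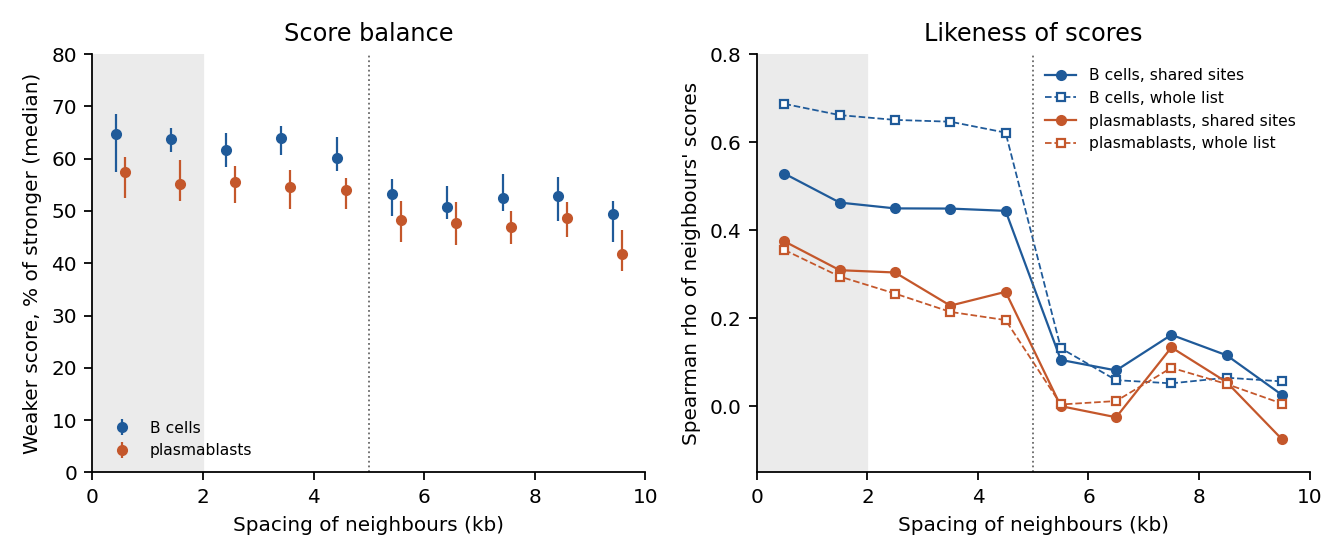
Left, median score balance (weaker score in percent of the stronger, y axis) of neighbouring shared sites per kb of spacing (x axis), with order-statistic 95% intervals. Right, Spearman correlation of the scores of neighbours for shared sites (filled) and for all autosomal peaks of each list (open). Grey marks the tandem range and the dotted line 5 kb, where the B cell correlation of shared sites goes from 0.44 to 0.11.

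The stronger partner was the same in both cell types in most tandem pairs. After 8 pairs with a tie in either list were left out, this held for 696 of 973 pairs (71.5%, interval 68.6 to 74.3%), and the other 277 changed their order. Over all neighbouring shared sites of any spacing the share was 75.4%, and over those more than 2 kb apart 75.6% (75.0 to 76.2%). The tandem share lay below this background. For pairs 2 to 5 kb apart the share was 73.5% (71.3 to 75.5%), inside the interval of the tandem pairs. Across the 981 pairs, the signed log2 ratios of right to left score in B cells and plasmablasts had a Spearman correlation of 0.61, and across the 23186 pairs farther apart one of 0.67. The stronger partner was the left one in 49.4% of the untied pairs in B cells and in 48.1% in plasmablasts. By tertile of pair strength, the order was kept in 69.8% of the weakest, 73.9% of the middle and 70.9% of the strongest pairs.

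**Figure D3:**
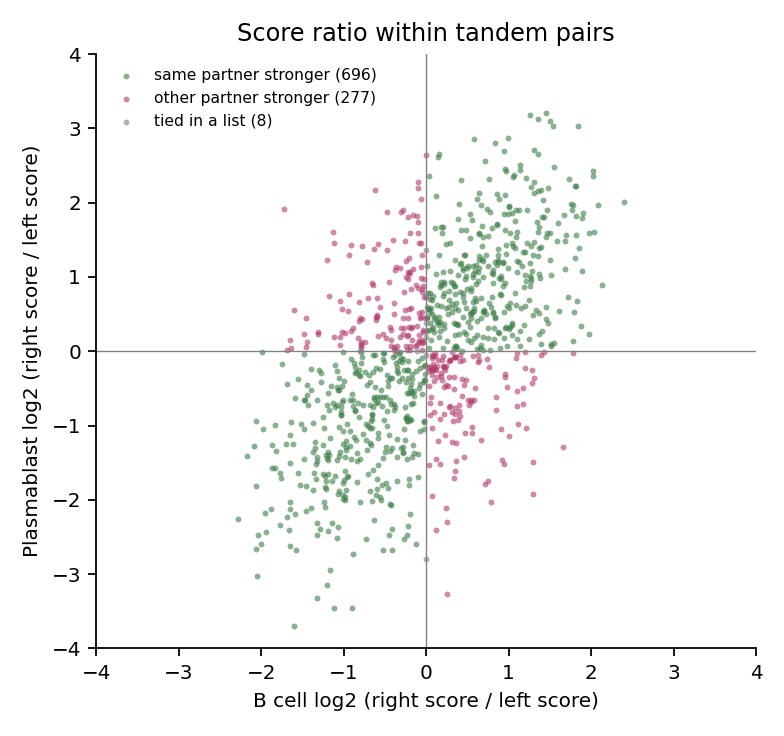
Log2 ratio of the right to the left partner's score in B cells (x axis) and in plasmablasts (y axis), 1 point per tandem pair. The 696 pairs with the same stronger partner (green) lie in the lower left and upper right, and the 277 that changed order (magenta) in the other quadrants.

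How often the order was kept rose with the size of the imbalance, in tandem pairs and in those farther apart. The fold and the order come from the same scores, and a near tie is more easily reversed. Such a rise thus follows in part from the measure. Over 5 kb it went from 55.2% under 1.2-fold in B cells to 90.4% at 3-fold or more. Of the pairs less than 1.2-fold apart in B cells, 113 of 229 kept the order (49.3%, interval 42.7 to 56.0%). The share was 65.9% from 1.2 to 1.5-fold, 79.1% from 1.5 to 2-fold and 84.8% from 2 to 3-fold, and 72 of 79 pairs at least 3-fold apart kept it (91.1%, 82.6 to 96.4%). Of all 303 pairs at least 2-fold apart in B cells, 86.5% kept the order (82.1 to 90.1%), next to 86.4% of all neighbouring shared sites with such a difference. Of the 421 untied pairs at least 2-fold apart in plasmablasts, 82.9% did (79.0 to 86.4%), and the background was again 86.4%. Class by class, the shares of neighbours 2 to 5 kb and over 5 kb apart lay inside the interval of the tandem pairs, with these exceptions. Under 1.2-fold, pairs 2 to 5 kb apart kept the order more often (61.5% by B cell fold and 56.0% by plasmablast fold), and from 1.5 to 2-fold in B cells, pairs over 5 kb apart did so less often (72.3%). Where both lists put the partners at least 2-fold apart, 175 of 184 tandem pairs had the same stronger partner (95.1%) and 9 had the other one, next to 94.3% of all neighbouring shared sites with such a difference in both lists.

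**Figure D4:**
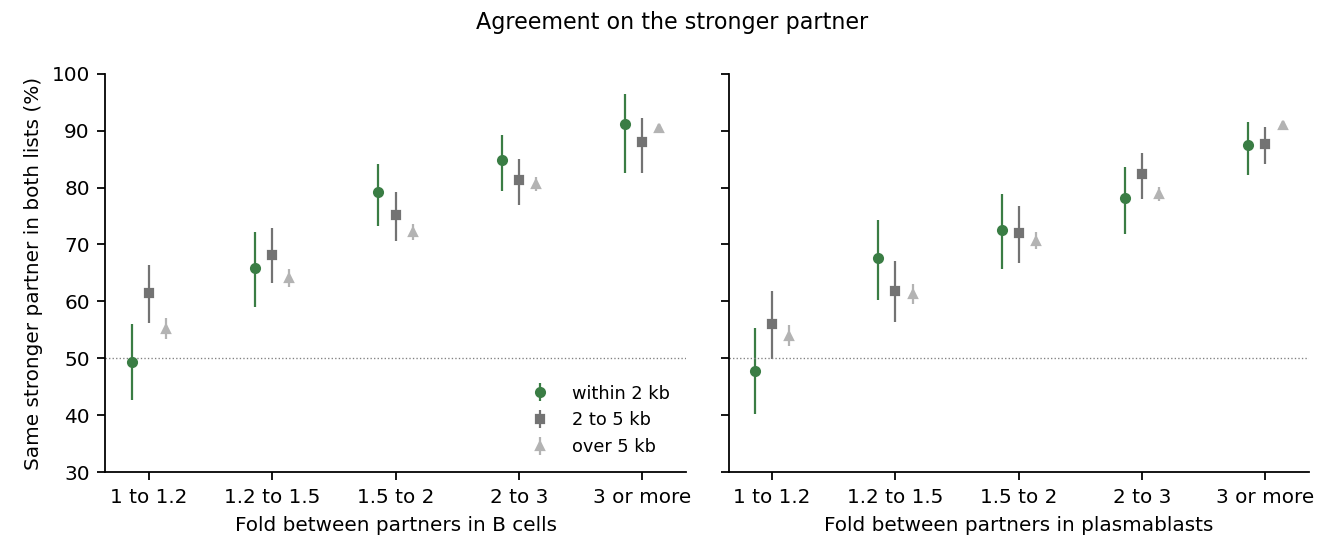
Percent of untied pairs with the same stronger partner in both lists (y axis, from 30 to 100%) by the fold between partners in B cells (left) or plasmablasts (right), for pairs within 2 kb (green), 2 to 5 kb apart and over 5 kb apart (grey), with exact binomial 95% intervals. Tandem pairs go from 49.3% to 91.1% by B cell fold and from 47.8% to 87.4% by plasmablast fold.

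The 5 pairs with the largest fold common to both lists are given next, and their imbalance follows from that choice. On chromosome 6, the site at 134933601 to 134933905 scored 167.6 in B cells and 24.0 in plasmablasts, and its right neighbour at 134934852 to 134935156 scored 34.3 and 5.0. The left site was thus 4.89-fold and 4.80-fold stronger. On chromosome 11, the site at 94646590 to 94646894 scored 178.8 and 27.2, and its right neighbour at 94647922 to 94648226 scored 42.6 and 4.3. On chromosome 5, the site at 145830627 to 145830931 scored 150.0 and 60.9, and its right neighbour at 145832248 to 145832552 scored 36.1 and 7.5, an imbalance that was 4.16-fold in B cells and 8.12-fold in plasmablasts. The other two lay on chromosome 5 from 33375936 to 33377133, with the left site the stronger, and on chromosome 8 from 114569097 to 114570145, with the right one the stronger. The weaker partners of these 5 pairs ranged from the 32.1st to the 46.3rd percentile of B cell peaks and from the 2.04th to the 38.6th percentile of plasmablast peaks.

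The pairs that changed order most were led by a pair on chromosome 13. Its left site at 102463957 to 102464261 scored 82.4 in B cells and 19.4 in plasmablasts, and its right site at 102465877 to 102466181 scored 25.0 and 73.0. The left site was 3.30-fold stronger in B cells and the right site 3.76-fold stronger in plasmablasts. The right site went from the 21.1st percentile of B cell peaks to the 97.4th of the plasmablast list, while the left one lay at the 58.3rd and 49.9th. The spacing was 1920 bp in B cells and 1897 bp in plasmablasts.

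In the next 3 the right site was the stronger in B cells and the left one in plasmablasts. On chromosome 1, the left site at 59199678 to 59199982 scored 61.1 in B cells and 42.5 in plasmablasts, while the right site at 59201422 to 59201726 scored 150.0 and 11.2. On chromosome 2, the left site at 103841235 to 103841539 scored 88.0 and 27.1, and the right site at 103842923 to 103843227 scored 215.8 and 9.6. In both pairs the right site was high in the B cell list, at the 76.6th and 89.8th percentiles, and low in the plasmablast list, at the 30.5th and 24.8th. On chromosome 19, the left site at 8932232 to 8932536 scored 23.2 and 17.8, and the right site at 8933536 to 8933840 scored 73.2 and 7.3. The last of these 5 pairs, on chromosome 10 from 86291035 to 86292639, had its left site stronger in B cells (119.5 against 51.9) and its right site in plasmablasts (16.7 against 7.1). With 1 library per cell type, the spread of such ratios between libraries of the same cell type is unknown.

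The 5 strongest tandem pairs are those whose lowest percentile over both partners and both lists is highest. With every site near the top of both lists, large folds between partners could not occur. On chromosome 19, the sites at 44369253 to 44369557 and 44370281 to 44370585 scored 287.1 and 301.0 in B cells and 74.9 and 92.0 in plasmablasts, so the right one was the stronger in both. On chromosome 5, the sites at 121069232 to 121069536 and 121070715 to 121071019 scored 268.6 and 275.1 in B cells and 85.6 and 71.0 in plasmablasts. On chromosome 10, those at 59355785 to 59356089 and 59357564 to 59357868 scored 265.8 and 289.9, and 71.4 and 93.5. In these 3 pairs the lowest percentile in either list was 96.87. The pairs on chromosome 14 from 69942525 to 69944198 and on chromosome 2 from 32713167 to 32714848 followed. Their lowest percentiles were 96.40 and 95.39. No partner in these 5 pairs exceeded the other by more than 1.34-fold in either list, and 3 of the 5 changed order.

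Tandem partners moved together between the cell types more often than distant neighbours did, most of all within 1 kb. For each shared site the rank shift is its percentile among shared sites in plasmablasts minus that in B cells, so a positive shift means a higher rank in plasmablasts. Both partners shifted to the same side in 585 of 981 pairs (59.6%, interval 56.5 to 62.7%), against 53.2% of all neighbouring shared sites and 52.9% (52.2 to 53.5%) of those over 2 kb apart. Both ranked higher in B cells in 347 pairs and higher in plasmablasts in 238. The share was 67.1% within 1 kb (60.9 to 72.8%, 171 of 255 pairs) and 59.8% from 1.5 to 2 kb (54.4 to 65.1%). From 1 to 1.5 kb it was 54.6% (49.5 to 59.6%, 390 pairs), an interval that held the value of distant neighbours. From 2 to 5 kb it was 54.1%. With only peaks at or above their list's median score, the tandem share was 55.5% (50.8 to 60.2%). Where both partners shifted by at least 10 points, 68.0% of tandem pairs did so to the same side (247 of 363, 63.0 to 72.8%), against 55.7% of pairs farther apart (54.6 to 56.8%).

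The share of joint shifts was highest in the weakest pairs, but the intervals of all tertiles overlapped. In the middle tertile the interval held the value of distant neighbours, and in the strongest its lower end lay just above that value. In the weakest, middle and strongest tertile of tandem pairs 64.5% (59.1 to 69.7%), 55.0% (49.5 to 60.5%) and 59.3% (53.8 to 64.7%) shifted to the same side, and among neighbours over 2 kb apart in the same ranges of strength 52.5%, 53.0% and 53.6% did. The scores of tandem partners had correlations of 0.48 in B cells and 0.33 in plasmablasts. For neighbours 2 to 5 kb apart these were 0.45 and 0.26, and 54.1% shifted to the same side. Whether the likeness of scores has a part in the joint shifts was not tested. The correlation of the shifts of both partners was 0.35 within 1 kb (255 pairs), 0.17 from 1 to 1.5 kb (390), 0.20 from 1.5 to 2 kb (336) and 0.11 from 2 to 5 kb. Chromatin was sheared to fragments shorter than the spacing of these pairs, per the labels, and whether reads of one site add to the score of a partner was not tested. The size of the shift was alike in both kinds of site, with a median of 12.7 points in tandem and 13.0 points in the other shared sites.

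Longer runs are described by their strongest and weakest sites. In the 28 runs of 3, spanning 1460 to 3553 bp between outer midpoints, the strongest site was the same in both cell types in 15 and the weakest in 16. No such count was made for 3 neighbouring shared sites farther apart, so these counts describe the runs only. The strongest site exceeded the weakest by a median of 1.83-fold in B cells and 2.29-fold in plasmablasts. One of the most unequal in plasmablasts was on chromosome 3 from 88046495 to 88050100, where the sites scored 234.3, 203.8 and 296.4 in B cells and 20.3, 61.1 and 83.5 in plasmablasts, from left to right. There the left site was at the 92.9th percentile of B cell peaks and the 51.5th of the plasmablast list, while the right one was near the top of both. By contrast, the run on chromosome 17 from 56271313 to 56274408 was even in plasmablasts (60.3, 59.3 and 57.0) and less so in B cells (247.3, 174.1 and 269.5). Both runs of 3 were picked after their values were seen.

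The only run of 4 lay on chromosome 9 from 71460867 to 71465520. From left to right its sites scored 115.8, 108.4, 162.1 and 205.6 in B cells and 23.0, 69.3, 78.2 and 43.6 in plasmablasts. The strongest site was the fourth in B cells and the third in plasmablasts, and the weakest was the second in B cells and the first in plasmablasts. The second site was at the 66.5th percentile of B cell peaks and the 96.4th of the plasmablast list.

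**Figure D5:**
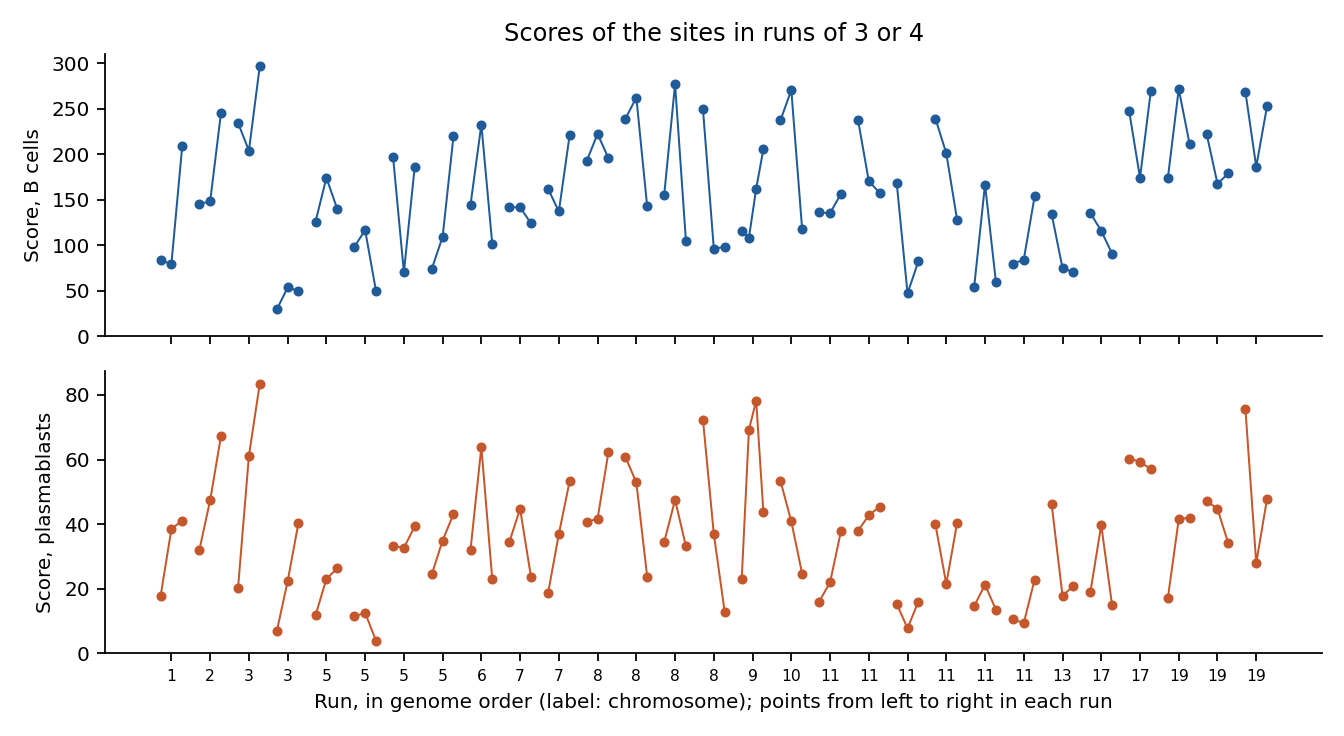
Scores (y axes, authors' values, from 0) of the sites in the 28 runs of 3 and the run of 4, in B cells (top) and plasmablasts (bottom), with the sites of a run joined from left to right and runs in genome order labelled by chromosome (x axis). The strongest site was the same in both lists in 15 of the 28 runs of 3.

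Pairs with both peaks shared were the most frequent kind among close pairs of the whole lists, as they were among neighbours over 2 kb apart. Against neighbours of any spacing, their share among close pairs was higher in the B cell list and lower in the plasmablast list. This comparison does not match pairs by score. The whole B cell list had 1881 autosomal pairs of neighbouring peaks within 2 kb. Both peaks were shared in 52.1% of them (interval 49.8 to 54.4%), 1 in 31.3% and none in 16.6%, and over all B cell neighbours of any spacing both were shared in 47.5%. The plasmablast list had 1901 such pairs, with both peaks shared in 51.0% (48.7 to 53.2%), 1 in 43.8% and none in 5.26%, against 65.1% with both shared over all plasmablast neighbours. Where both peaks of a close pair were above the median score of their list, both were shared in 85.9% of the B cell pairs (719 of 837) and 65.3% of the plasmablast pairs (481 of 737). For such neighbours more than 2 kb apart the shares were 88.7% and 83.9%. Where both peaks were at or below the median, the shares among close pairs were 12.8% (78 of 609) and 36.4% (155 of 426). Among such neighbours more than 2 kb apart they were 18.9% and 50.1%. In both score classes the share was thus lower among close pairs in either list, by more in the plasmablast list. The plasmablast list holds peaks closer together than the B cell list can, and this enters its share.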

How the data were processed

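CTCF-bound DNA was sequenced in 1 library per cell type. The submitters' processing notes name Bowtie, HOMER and mm9, with no version or threshold given in the sources used here. The score in the lists the authors deposited has no stated unit, and it was used to compare peaks within a list. Scores were ranked as percentiles, ties at their mean rank. Starts were read as BED and are printed 1-based (mm9). Input was not analysed here.

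Shared sites overlapped by 1 bp, and neighbours within 2000 bp by B cell midpoints were tandem. Shares have exact (Clopper-Pearson) and medians order-statistic 95% intervals. The members and lists were chosen with earlier results of these data known. Pairs named follow a rule: the 5 strongest, 5 most unbalanced in each direction of order, the 3 closest, 3 on each side of the limit, and each run of 4. The scripts were tested on the B cell list and an altered copy of it, in which peaks were moved and scores of some pairs swapped. No mm9 genome or annotation was used, so no gene, motif or sequence is given. The software was Python 3.11.15 with scipy 1.17.1, pandas 2.3.3, numpy 2.4.6 and matplotlib 3.10.9.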

Additional observations from a re-analysis of the deposited data

How the results depend on the processing

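Of 118 alternative values for 15 results, 89 stayed within the interval of the reported value (counts within 1.5 times) and 29 moved. With a limit of 1000 bp there were 508 tandem sites (2.10% of shared sites) in 255 pairs, with median spacings of 837 bp in B cells and 838 bp in plasmablasts. The same partner was then stronger in 92.3% of pairs at least 2-fold apart in B cells, both partners shifted to the same side in 67.1%, and both peaks were shared in 49.5% of close B cell and 33.1% of close plasmablast pairs. With 5000 bp there were 5143 sites (21.3%) in 2729 pairs, spaced 2596 and 2584 bp, with joint shifts in 56.1% and 58.4% of close plasmablast pairs shared. These follow in part from the limit itself. With peaks at or above their list's median score there were 873 sites (7.12%) in 445 pairs. Their balance was 72.6% in B cells and 69.9% in plasmablasts, their percentiles 84.7 and 80.8, the same partner was stronger in 86.7% of pairs at least 2-fold apart in plasmablasts, joint shifts were 55.5%, and 59.1% of close plasmablast pairs were shared. Pairs in runs of exactly 2 gave a tandem share of 7.62%, and a spacing of at least 500 bp gave 54.1% of close plasmablast pairs shared. Among pairs at least 1.5-fold apart in both lists 90.8% had the same stronger partner. Stricter overlap rules moved none of the 15 results out of its interval, nor did plasmablast midpoints among the 13 results run with them (all but the shares of close pairs with both peaks shared). Leaving out a library was impossible with 1 per cell type. Unlisted sites may be bound below the unknown detection limit.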

Other observations

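Peaks found in 1 list also lay near tandem pairs. A B cell peak without a plasmablast counterpart lay between the partners of 1 of the 981 pairs, and a plasmablast peak without a B cell counterpart between those of 13. Within 2 kb of a pair on either side, or between its partners, there was a B cell only peak at 10 pairs and a plasmablast only peak at 49. Counted by site, 0.673% of tandem sites had a B cell only peak within 2 kb (13 of 1932, interval 0.359 to 1.15%) and 2.57% of the other shared sites did. For plasmablast only peaks these were 3.78% (2.97 to 4.73%) and 3.40%. By the choice of members each tandem site already has a shared peak within 2 kb. No autosomal B cell peaks were listed closer than 549 bp, so part of that window was closed to a B cell only peak. How far this lowers the share was not tested. The midpoints of the 2 lists lay a median of 15 bp apart at tandem sites (14 to 16 bp) and 17 bp apart at the other shared sites. Tandem sites had a median rank shift of -2.50 points, toward a higher rank in B cells, and the other shared sites one of -0.30.

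Single chromosomes held only 18 to 94 tandem pairs, so their shares of pairs with the same stronger partner have a wide counting error. The share ran from 60.6% on chromosome 11, with 94 pairs, to 83.0% on chromosome 17, with 54 pairs. Median balance in B cells was lowest on chromosome 4 (47.1%, 53 pairs) and highest on chromosome 12 (75.2%, 30 pairs). The extremes were picked by value, and differences between chromosomes were not tested.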
